A study of Mus musculus with 10 samples.

Results

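The 30 genes described here make cholesterol, sense it, move it inside cells and pass it on, and each was looked up on the array by its symbol, with the brightest row taken where a gene had several. They are 17 enzymes of synthesis from acetyl-CoA to cholesterol, Ggps1 of the isoprenoid branch, 6 genes of sterol sensing, 3 of uptake and transport inside the cell, and 3 of export and turnover. Of these, 28 were measured under their symbol on the array, among 19938 genes in all. Acat2, the thiolase that starts the pathway, and Nr1h2, which encodes a liver X receptor, had no row under their symbol and are not analysed here. Hippocampal RNA came from 5 Ts65Dn mice and 5 control littermates without the extra chromosome, all males aged 16 weeks on the F1 hybrid B6C3B background, with the left and right hippocampus of a mouse extracted together and 1 Affymetrix Mouse Gene 1.0 ST array per mouse. Ts65Dn mice, a model of Down syndrome, carry in every cell a small additional chromosome made of a part of mouse chromosome 16 (Mmu16) and the part of mouse chromosome 17 (Mmu17) near its centromere, so genes of both segments are present in 3 copies. None of the 28 genes lies in either segment (taken as bases 84718281 to 97962627 of chromosome 16 and 3064318 to 8986648 of chromosome 17 in GRCm38), so each was present in the usual number of copies in both genotypes.

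Cholesterol hardly crosses the barrier between blood and brain, so the brain makes its own. Oligodendrocytes use it for myelin, and in the adult, astrocytes make it and hand it to neurons on particles that carry apolipoprotein E. When the membrane of the endoplasmic reticulum holds little cholesterol, the carrier Scap takes the membrane-bound factor encoded by Srebf2 to the Golgi, where it is cut, and the freed part enters the nucleus and switches on the genes of synthesis. When cholesterol is plentiful, the Insig proteins hold Scap back. Neurons dispose of cholesterol mainly by adding a hydroxyl group through the enzyme encoded by Cyp46a1, and derivatives of this kind activate the liver X receptors, which switch on export through Abca1.

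The factor encoded by Srebf2 binds a sterol regulatory element and works beside NF-Y, a factor that binds CCAAT, so the promoters are shown for 5 of the 6 members with an unadjusted p under 0.05 between genotypes, the other being Sqle, which had no promoter in the table used here. Each line gives the 170 bases before a RefSeq start site in the assembly GRCm38.p6, from 5′ to 3′ on the strand of the gene. Capitals mark matches on either strand to TCACNCCAC (sterol regulatory element), CACGTG (E-box, which factors of the same family can also bind) or CCAAT (read as ATTGG when it lies on the other strand).
Hmgcs1 chr13:119690181-119690350 (+ strand): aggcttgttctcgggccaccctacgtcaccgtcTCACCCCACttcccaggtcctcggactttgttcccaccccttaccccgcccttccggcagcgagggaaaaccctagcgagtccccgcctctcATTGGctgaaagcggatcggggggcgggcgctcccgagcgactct
Msmo1 chr8:64733579-64733748 (- strand): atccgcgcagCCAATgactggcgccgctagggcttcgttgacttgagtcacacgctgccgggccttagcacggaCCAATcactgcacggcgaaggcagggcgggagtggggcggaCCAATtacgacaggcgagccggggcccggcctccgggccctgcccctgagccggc
Sc5d chr9:42264301-42264470 (- strand): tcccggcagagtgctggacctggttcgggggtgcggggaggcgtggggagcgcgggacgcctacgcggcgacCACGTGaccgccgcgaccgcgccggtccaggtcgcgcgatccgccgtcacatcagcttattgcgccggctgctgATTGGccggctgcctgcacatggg
Dhcr7 chr7:143830044-143830213 (+ strand): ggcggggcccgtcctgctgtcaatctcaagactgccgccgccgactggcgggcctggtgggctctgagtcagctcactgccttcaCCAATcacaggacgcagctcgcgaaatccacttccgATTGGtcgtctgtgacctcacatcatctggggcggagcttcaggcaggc
Ggps1 chr13:14063489-14063658 (- strand): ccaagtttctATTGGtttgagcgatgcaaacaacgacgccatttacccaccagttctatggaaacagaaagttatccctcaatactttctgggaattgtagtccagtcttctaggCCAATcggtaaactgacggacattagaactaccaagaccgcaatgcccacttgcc
Hmgcs1 held the sterol regulatory element at position -137 from the start, and no other measured member with a window held these letters. For Dhcr7 the third of its 3 start sites is shown, the only one of them with a CCAAT. Msmo1 held 3 copies of CCAAT, and Ggps1, the enzyme that leaves the sterol path, held 2 in the stretch shown.

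Promoter windows of 300 bases, from 250 before to 50 after the start, were given for 23 of the 28 measured genes (33 windows, since some genes have several starts). CCAAT lay in the windows of 20 of these 23 genes, and it was present for all 13 synthesis enzymes that had a window and for 6 of the 9 genes of sensing, transport and export. Counted over windows, 63.6% of the members' windows held it, against 37.4% of all 32851 windows and 38.2% of those of protein-coding genes. For the enzymes CCAAT lay in 13 of 16 windows. The counts by gene have no share of all genes beside them, and a gene with several starts had several windows to match in. The E-box lay in 7 of the 33 windows (21.2%), against 7.15% of all windows, and belonged to Hsd17b7, Sc5d, Dhcr7, Scap, Insig1 and Abca1. Both windows of Scap held it, at 29 and at -40 from their starts. These windows overlap and the E-box is the same site, so it was counted more than once. The sterol regulatory element lay in 3.03% of the members' windows, which is the 1 window of Hmgcs1, and in 1.24% of all windows. These matches describe letters and not bound sites, and no binding was measured.

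**Figure D1:**
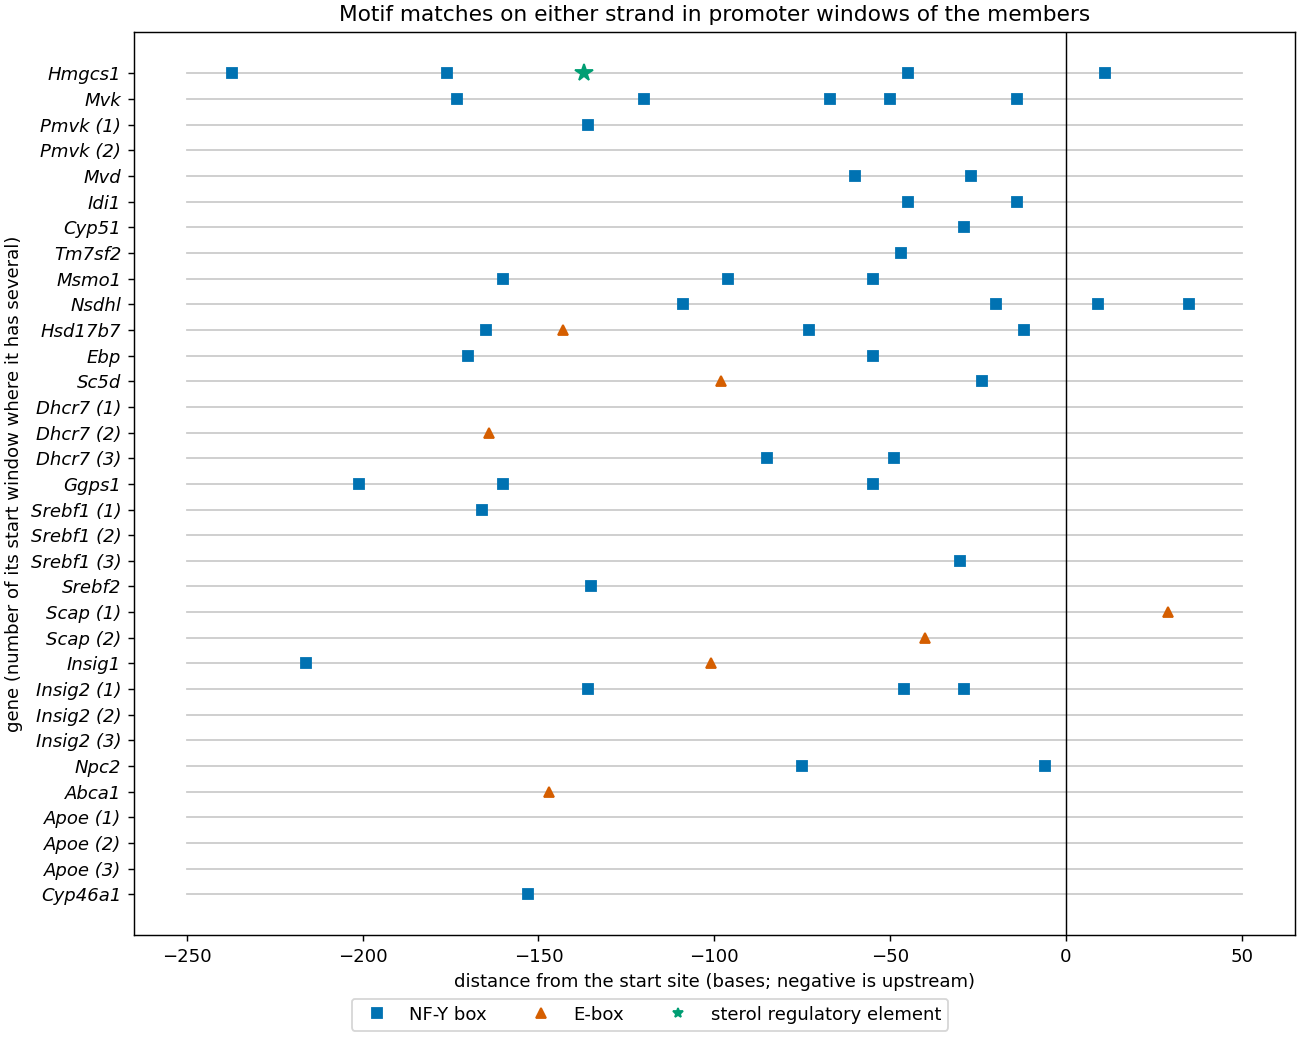
Positions of CCAAT (NF-Y box, squares), CACGTG (E-box, triangles) and the sterol regulatory element (star) in the promoter windows of 23 members, 1 line per window in pathway order, against distance from the start site in bases. Squares stand on at least 1 line of each of the 13 synthesis enzymes with a window, while the star stands on the line of Hmgcs1 alone, at -137.

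In the hippocampus of Ts65Dn mice no cholesterol gene passed the test across the array, and the differences were small: the log2 difference (Ts65Dn minus control, the measure used throughout) lay between -0.12 for Ggps1 and 0.18 for Msmo1. The synthesis enzymes mostly had differences above 0, with a median of 0.12 over the 16 measured, while the 11 genes of sensing, transport and export had a median of 0.03. Sc5d, Msmo1, Sqle, Hmgcs1 and Dhcr7 were the members with the smallest unadjusted p-values among those above 0, and each is an enzyme of synthesis. Ggps1, which uses the same precursor for another product, was the member with the smallest p among those below 0.

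By limma's moderated test with Benjamini-Hochberg adjustment over 23410 rows, 0 of 28 members passed an adjusted p of 0.05, against 0.316% of all rows (74 rows). At an unadjusted p under 0.05, 5 members stood higher in Ts65Dn, where 1.73% of all rows did and 1.31% of the rows outside both segments. That count was 2 after another quantile normalization, 2 without Ts65Dn 3 or control 4, 3 without Ts65Dn 2 or control 5, and 8 without Ts65Dn 4. Ggps1 alone stood lower, where 1.43% of all rows did. The rank method, which orders fold changes over the 25 pairs of a Ts65Dn and a control array and makes no adjustment, placed 8 members in its upper tail, against 2.89% of all rows: Hmgcs1, Fdft1, Sqle, Msmo1, Sc5d, Dhcr7, Insig1 and Stard4. It placed Ggps1 and Abca1 in its lower tail, where 2.47% of all rows lay. In 1 member, Sc5d, all 5 Ts65Dn mice lay above all 5 controls (0.577% of all rows), and in 0 members did all lie below (0.308% of all rows). A difference above 0 was found for 22 members, against 47.6% of all rows. Under 3 other normalizations of the arrays 20 to 22 members were above 0, and 14 of the 16 enzymes were above 0 under each of them. With 1 array left out, the number of enzymes above 0 was 12 (without control 5) to 15 (without Ts65Dn 5). The median difference was 0.06 over the members and -0.0028 over all rows. The members were measured on the same 10 arrays and many share a regulator, so their signs are not independent of each other.

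**Figure D2:**
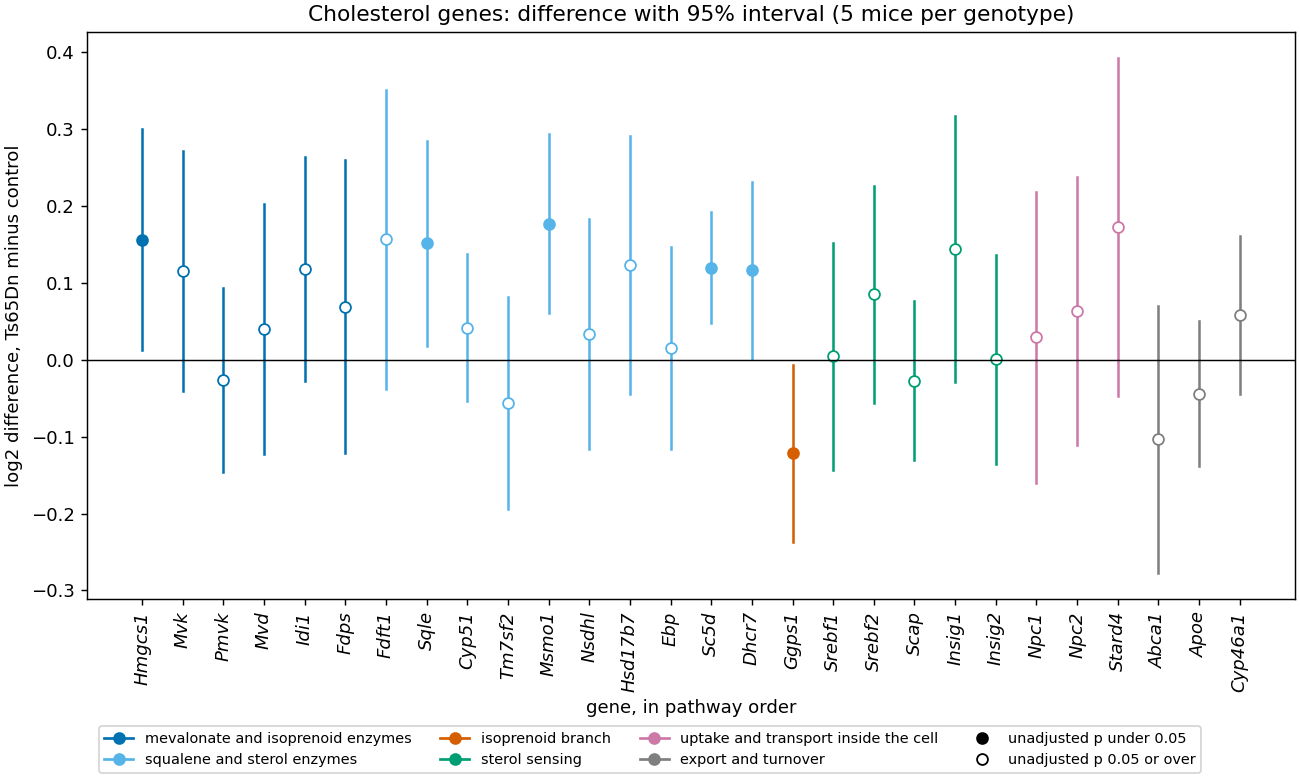
Log2 difference between genotypes (vertical axis, Ts65Dn minus control) for the 28 measured members in pathway order, with limma's 95% interval from 5 mice per genotype; colours give the role, and filled points mark an unadjusted p under 0.05. The filled points above 0 are Hmgcs1, Sqle, Msmo1, Sc5d and Dhcr7, the filled point below 0 is Ggps1, and the intervals of the other 22 members cross 0.

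The first 7 enzymes, from Acat2 to Fdps, build the isoprenoid units from acetyl-CoA, and 6 of them were measured, with a median difference of 0.09. Hmgcs1, on chromosome 13 (119690351 to 119708260), makes the HMG-CoA that is reduced to mevalonate. Its log2 signals were 10.68, 10.76, 10.83, 10.60 and 10.75 in Ts65Dn mice 1 to 5 and 10.44, 10.50, 10.78, 10.53 and 10.59 in control mice 1 to 5. Control 3, at 10.78, lay above all Ts65Dn mice but number 3, while the other 4 controls lay below all 5 Ts65Dn mice. The log2 difference was 0.16 ± 0.07 (SE), with an unadjusted p of 0.0360 and an adjusted p of 1.00, and corresponds to a ratio of 1.11 (95% interval 1.01 to 1.23).

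For the kinases of mevalonate the differences were 0.11 ± 0.07 for Mvk and -0.03 ± 0.05 for Pmvk. Mvd, the decarboxylase that makes isopentenyl diphosphate, gave 0.04 ± 0.07. Idi1, which turns isopentenyl diphosphate into its isomer, gave 0.12 ± 0.07, and all 5 Ts65Dn mice lay above the median of the controls. The row used for Idi1, the brighter of its 2 rows, carries an identifier whose 10 nearest neighbours with a position all belong to genes of chromosome 2, whereas Idi1 lies on chromosome 13. The other row of Idi1 has neighbours on chromosome 13 and gave 0.11 ± 0.07. Fdps, which joins the units into farnesyl diphosphate, gave 0.07 ± 0.09, with Ts65Dn 3 at 10.14 and the other 4 Ts65Dn mice between 9.61 and 9.84. Of these 6 enzymes 5 were above 0, of which Hmgcs1 alone had an unadjusted p under 0.05.

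The 10 enzymes from squalene to cholesterol had a median difference of 0.12, and 9 of them were above 0. Fdft1, squalene synthase, makes the first step that leads to sterols only, and its difference was 0.16 ± 0.09. A second row of Fdft1 gave 0.23 ± 0.13, and neither row had an unadjusted p under 0.05 (0.104 and 0.0984). Sqle, on chromosome 15 (59315092 to 59331193), puts the oxygen on squalene and is a rate-limiting step of the pathway. In Ts65Dn mice 1 to 5 its log2 signals were 9.44, 9.55, 9.62, 9.33 and 9.49, and in control mice 1 to 5 they were 9.38, 9.40, 9.41, 9.24 and 9.23. Ts65Dn 4 lay below controls 1, 2 and 3, and the other 4 Ts65Dn mice lay above every control. The difference was 0.15 ± 0.06, with an unadjusted p of 0.0295 and an adjusted p of 1.00.

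After the ring is closed, methyl groups are removed and double bonds are moved. Cyp51, which takes off the first methyl group, gave 0.04 ± 0.04, and Tm7sf2, a sterol reductase of the next step, gave -0.06 ± 0.06. Msmo1, on chromosome 8 (64718123 to 64733578), oxidises the methyl groups at the fourth carbon, the step that opens their removal. Its log2 signals were 10.29, 10.36, 10.43, 10.38 and 10.47 in Ts65Dn mice 1 to 5 and 10.16, 10.34, 10.28, 10.08 and 10.19 in control mice 1 to 5. Ts65Dn 1 was below control 2, the highest control, and every other Ts65Dn mouse was above all controls. At 0.18 ± 0.05 this was the highest difference of the 28 members, a ratio of 1.13 (95% interval 1.04 to 1.23), with an unadjusted p of 0.00646 and an adjusted p of 0.824. The enzymes that act with Msmo1 gave 0.03 ± 0.07 (Nsdhl, the dehydrogenase) and 0.12 ± 0.08 (Hsd17b7, the reductase), so within this group of steps the measured differences were unequal, though the intervals of Nsdhl and Msmo1 overlap. For Hsd17b7 the highest Ts65Dn mouse was number 5 at 9.26 and the lowest was number 2 at 8.81, below all controls.

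The last steps set the double bonds of the ring. Ebp, the isomerase, gave 0.02 ± 0.06. Sc5d, on chromosome 9 (42251592 to 42264300), is the desaturase that makes 7-dehydrocholesterol. The log2 signals of Sc5d were 10.41, 10.40, 10.35, 10.36 and 10.39 in Ts65Dn mice 1 to 5 and 10.26, 10.31, 10.28, 10.21 and 10.23 in control mice 1 to 5. The genotypes did not overlap: the lowest Ts65Dn mouse was at 10.35 and the highest control at 10.31. The SD was 0.03 among Ts65Dn mice and 0.04 among controls, and the difference was 0.12 ± 0.03, a ratio of 1.09 (95% interval 1.03 to 1.14). Its unadjusted p of 0.00371 was the smallest of the members, and its adjusted p was 0.579. Dhcr7, on chromosome 7 (143823167 to 143848410), reduces 7-dehydrocholesterol to cholesterol, and loss of its human counterpart causes Smith-Lemli-Opitz syndrome. Ts65Dn mice 1 to 5 had log2 signals of 8.74, 8.64, 8.72, 8.52 and 8.65, and control mice 1 to 5 had 8.65, 8.55, 8.56, 8.50 and 8.43. Ts65Dn 4 lay below controls 1, 2 and 3, and Ts65Dn 2 and 5 lay just below control 1. The difference of Dhcr7 was 0.12 ± 0.05, with an unadjusted p of 0.0481 and an adjusted p of 1.00. Leaving out each array in turn kept the unadjusted p under 0.05 in 10 of 10 fits for Msmo1 and for Sc5d, in 5 for Sqle, in 4 for Hmgcs1 and in 2 for Dhcr7.

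**Figure D3:**
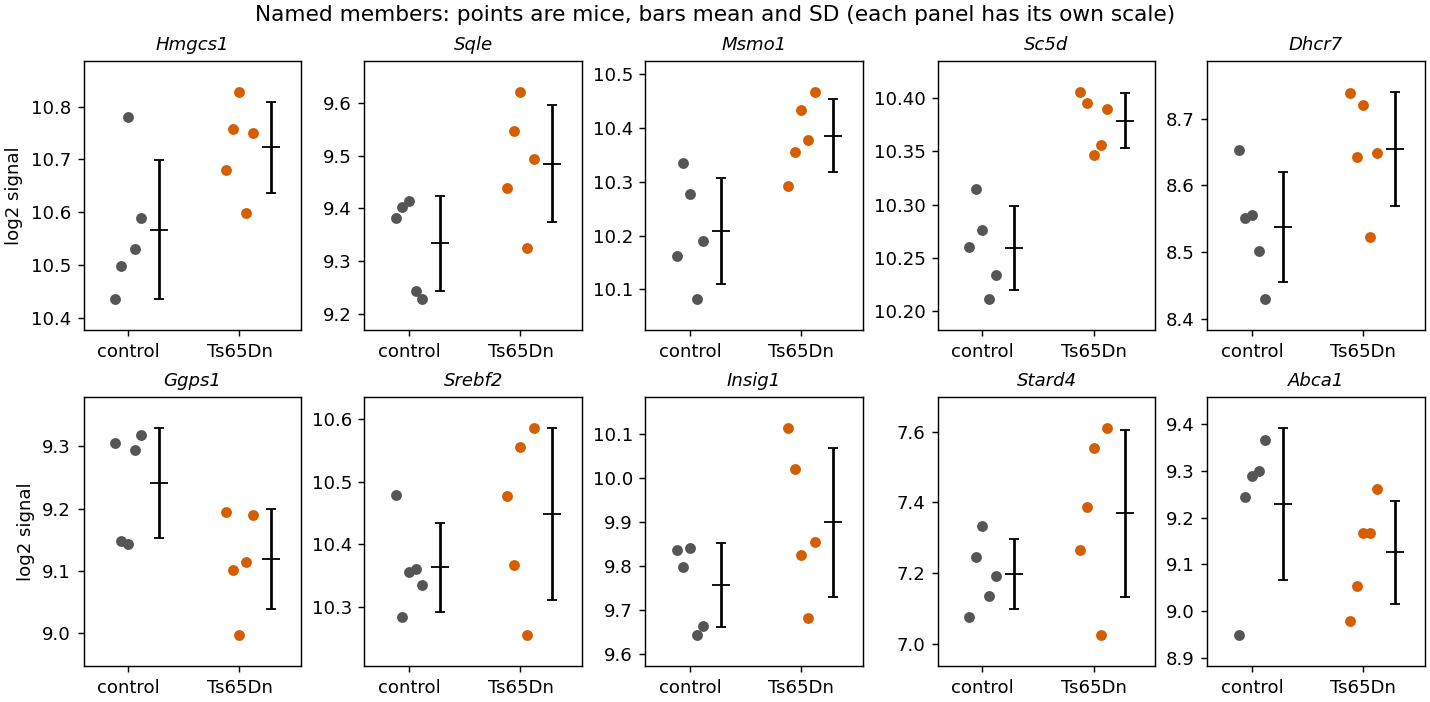
Log2 signal (vertical axis, each panel on its own scale) of the 10 members described mouse by mouse, with 1 point per mouse, controls in grey and Ts65Dn mice in orange, and bars for mean and SD (n = 5). The points of the genotypes are apart for Sc5d, with Ts65Dn from 10.35 up and controls up to 10.31, and overlap in the other 9 panels.

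Ggps1, on chromosome 13 (14049790 to 14063566), lengthens farnesyl diphosphate to geranylgeranyl diphosphate, a lipid that is attached to proteins, and so draws on the same precursor as Fdft1. Log2 signals of 9.19, 9.10, 9.00, 9.11 and 9.19 were measured in Ts65Dn mice 1 to 5 and 9.31, 9.15, 9.14, 9.29 and 9.32 in control mice 1 to 5. All 5 Ts65Dn mice lay below the median of the controls, and controls 2 and 3 lay among them. The difference was -0.12 ± 0.05, a ratio of 0.919 (95% interval 0.848 to 0.996), with an unadjusted p of 0.0403 and an adjusted p of 1.00. Without Ts65Dn 2, Ts65Dn 3, Ts65Dn 4, control 1, control 4 or control 5 the unadjusted p was above 0.05, with 0.0995 as the highest value.

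Of the sterol sensing genes 5 were measured, 4 of them above 0, with a median of 0.0042 and no unadjusted p under 0.05. Srebf2, the main activator of synthesis, had log2 signals of 10.48, 10.37, 10.56, 10.26 and 10.59 in Ts65Dn mice 1 to 5 and 10.48, 10.28, 10.36, 10.36 and 10.34 in control mice 1 to 5. Ts65Dn 4 was the lowest of all 10 mice, Ts65Dn 3 and 5 were the highest, and the difference was 0.09 ± 0.06 (unadjusted p of 0.212). With each array left out in turn, the difference of Srebf2 was 0.05 to 0.13. Its unadjusted p was under 0.05 in 1 of 10 fits (0.035, without Ts65Dn 4) and 0.443 at the highest. Insig1, itself a target of this activator, had 10.12, 10.02, 9.83, 9.68 and 9.86 in Ts65Dn mice 1 to 5 and 9.84, 9.80, 9.84, 9.64 and 9.66 in control mice 1 to 5. Ts65Dn 1, 2 and 5 lay above all controls and the other 2 lay among them, and the difference was 0.14 ± 0.08 (unadjusted p of 0.0952). Over the same 10 fits the difference of Insig1 was 0.089 to 0.198. Its unadjusted p was under 0.05 in 1 of them (0.0182, without Ts65Dn 4) and 0.239 at the highest. Its paralogue Insig2 gave 0.00 ± 0.06, Scap gave -0.03 ± 0.05, and Srebf1, whose products act chiefly on fatty acid synthesis, gave 0.00 ± 0.07.

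Npc1 and Npc2 pass cholesterol out of the lysosome after uptake, and their differences were 0.03 ± 0.09 and 0.06 ± 0.08. Stard4 carries sterols between membranes inside the cell. For Stard4 the log2 signals were 7.27, 7.39, 7.55, 7.03 and 7.61 in Ts65Dn mice 1 to 5 and 7.08, 7.25, 7.33, 7.13 and 7.19 in control mice 1 to 5. Ts65Dn 3 and 5 were the highest and Ts65Dn 4 the lowest of all 10 mice, so the SD was 0.24 in Ts65Dn and 0.10 in controls. The difference, 0.17 ± 0.10, was close in size to that of Msmo1 but had an unadjusted p of 0.113. With each array left out in turn, the difference of Stard4 was 0.11 to 0.26. Its unadjusted p was under 0.05 in 1 of 10 fits (0.0068, without Ts65Dn 4) and 0.268 at the highest.

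Abca1, the pump that loads cholesterol on lipoproteins, was at 8.98, 9.05, 9.17, 9.17 and 9.26 in Ts65Dn mice 1 to 5 and at 8.95, 9.24, 9.29, 9.30 and 9.37 in control mice 1 to 5. Control 1 was the lowest of all 10 mice, Ts65Dn 5 lay between controls 2 and 3, and the other 4 Ts65Dn mice lay below controls 2 to 5. The difference was -0.10 ± 0.08 (unadjusted p of 0.215), and with each array left out in turn it was -0.17 to -0.07. The unadjusted p was under 0.05 in 1 of 10 fits (0.0131, without control 1) and 0.425 at the highest. Apoe, the carrier protein of brain lipoproteins, gave -0.04 ± 0.04, with an SD of 0.02 in Ts65Dn and 0.08 in controls. Cyp46a1, the hydroxylase of neurons, gave 0.06 ± 0.05, and all 5 Ts65Dn mice lay above the median of the controls.

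**Figure D4:**
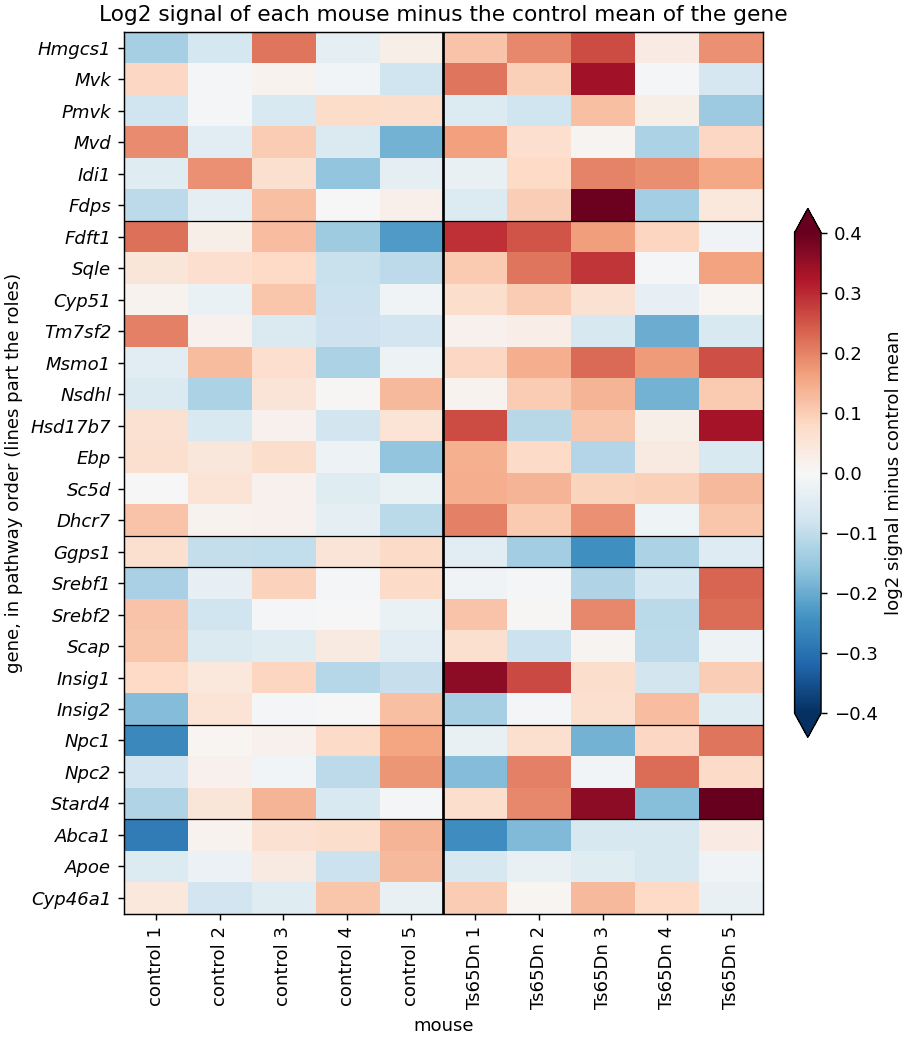
Log2 signal of each mouse (columns, controls left and Ts65Dn right) minus the control mean of the gene, for the 28 members in pathway order (rows, with lines between the roles); red is above and blue below the control mean. Most cells of the enzymes are red in Ts65Dn 1, 2, 3 and 5, while Ts65Dn 4 holds more blue cells and was the lowest of its genotype for 8 of 16 enzymes.

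As a mean over the 16 measured synthesis enzymes, the log2 signal per mouse was 9.24, 9.22, 9.28, 9.13 and 9.21 in Ts65Dn mice 1 to 5. In control mice 1 to 5 it was 9.16, 9.14, 9.19, 9.08 and 9.08. Ts65Dn 1, 2, 3 and 5 lay above every control, and Ts65Dn 4 lay below controls 1, 2 and 3. Number 4 was the lowest in both genotypes, by little among the controls. The genotype means were 9.22 ± 0.06 and 9.13 ± 0.05 (SD, n = 5), a difference of 0.08. For the steps up to farnesyl diphosphate the difference of the means was 0.08, and for the steps from squalene on it was 0.09. In the earlier steps Ts65Dn 3 stood at 9.17, the other Ts65Dn mice at 8.95 to 9.03 and the controls at 8.92 to 9.03. There 1 Ts65Dn mouse lay above all controls, against 4 in the later steps.

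The 11 genes of sensing, transport and export gave 9.83, 9.86, 9.86, 9.81 and 9.93 per mouse in Ts65Dn and 9.76, 9.82, 9.85, 9.82 and 9.88 in controls. Their genotype means were 9.86 ± 0.05 and 9.82 ± 0.05, a difference of 0.03, and the genotypes overlapped over most of their range. Without Ts65Dn 5 this difference was 0.016, and without control 1 it was 0.018, while that of the enzymes lay between 0.068 and 0.11 with any 1 array left out. Stard4, with a mean signal of 7.28, was dimmer than the median row at 7.40. Over the members brighter than that row the difference was 0.02 for these genes and 0.08 for the enzymes. With the median signal over genes in each mouse in place of the mean, the difference was 0.11 for these genes and 0.16 for the enzymes. That median follows the genes of middle signal, and among these 11 it was the value of Insig1 or Insig2 in every mouse. The median of the gene differences was 0.03 for these genes and 0.12 for the enzymes. Of these 11 genes 8 were above 0, against 14 of 16 enzymes, and 0 against 5 had an unadjusted p under 0.05 above 0. Under another round of quantile normalization 6 of the 11 were above 0. Whether the enzymes differed between genotypes by more than the other genes was not tested, because both groups were chosen with results of these arrays known.

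**Figure D5:**
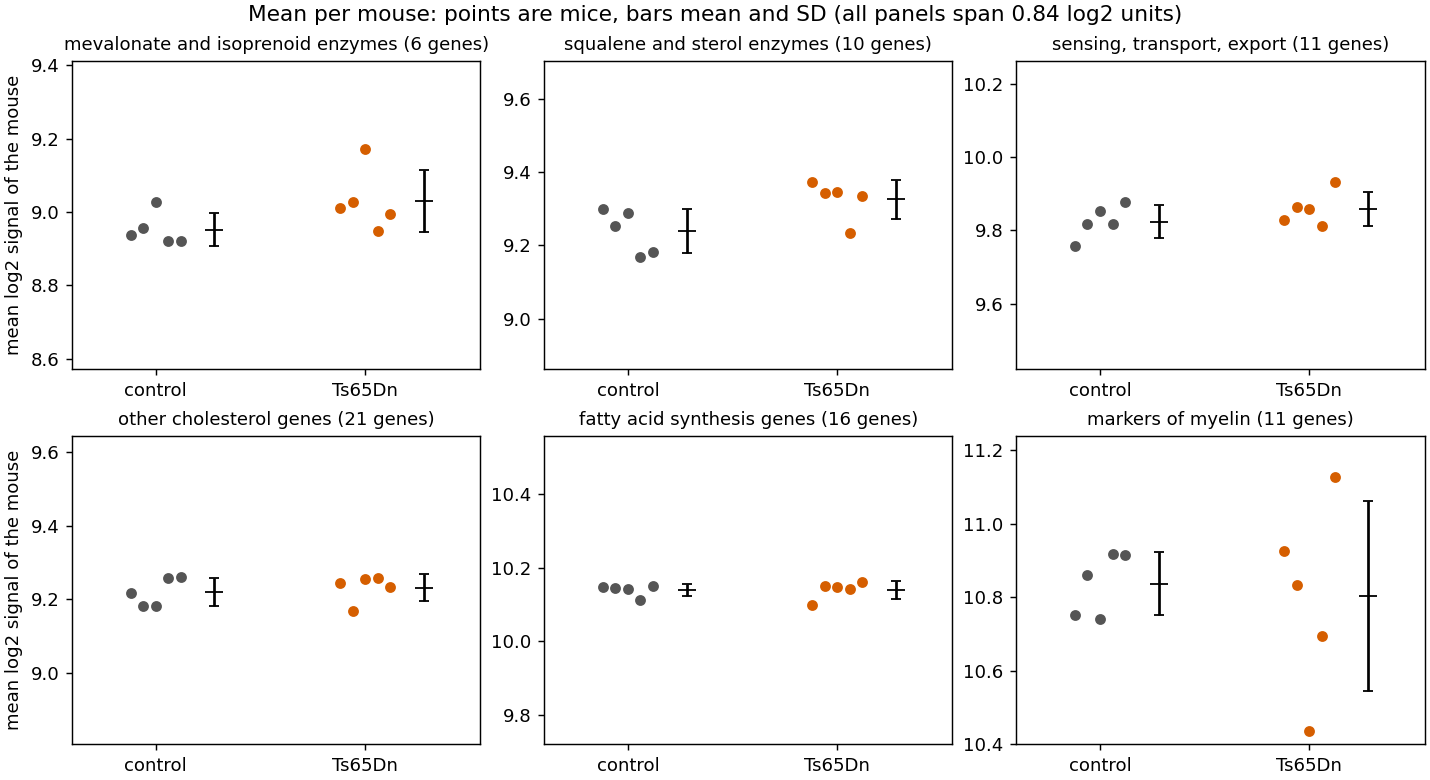
Mean log2 signal per mouse (vertical axis, every panel spanning the same range) over the measured genes of each list, controls in grey and Ts65Dn in orange, with bars for mean and SD (n = 5). Among the squalene and sterol enzymes 4 Ts65Dn mice lie above all controls, the fatty acid synthesis genes lie at 10.14 on average in both genotypes, and the myelin markers reach from 10.44 to 11.13 among Ts65Dn mice.

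Neighbouring lists of genes were counted in the same fit, and from each the 4 genes of smallest p are named. Of 28 further cholesterol genes 21 were measured, with 11 above 0, 10 below and a median of 0.0048. One of them, Lcat, which esterifies cholesterol on lipoproteins, had an unadjusted p under 0.05, with a difference of 0.17 ± 0.06 (p of 0.0187, adjusted p of 1.00). Mylip, which marks lipoprotein receptors for breakdown and is a target of liver X receptors, gave -0.16 ± 0.08 (unadjusted p of 0.0647). The receptor Scarb1 gave 0.10 ± 0.06, and the sterol carrier Stard5 gave 0.10 ± 0.07. Lss, the cyclase between Sqle and Cyp51 in the pathway, gave -0.01 ± 0.10.

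The 16 genes of fatty acid synthesis, which the products of Srebf1 drive, had 8 differences above 0 and 8 below, with a median of -0.0031. In this list Pnpla3, a lipase of lipid droplets, had an unadjusted p under 0.05 with 0.14 ± 0.06 (p of 0.0395). Scd2, the main desaturase of fatty acids in brain, gave 0.06 ± 0.03, Aacs, which activates acetoacetate for lipid synthesis, gave 0.12 ± 0.09, and Me1, a source of NADPH, gave 0.06 ± 0.05. The largest difference of this list, named after its value was seen, was that of Acss2, which makes acetyl-CoA from acetate, at -0.26 ± 0.25. Of 13 genes that use isoprenoids 11 were measured, with 5 above 0, 6 below, a median of -0.0048 and none at an unadjusted p under 0.05. Their smallest p-values belonged to Dhdds, of dolichol synthesis, at 0.09 ± 0.06, Coq2, of coenzyme Q synthesis, at 0.24 ± 0.19, Rabggta, which attaches geranylgeranyl groups to Rab proteins, at -0.05 ± 0.05, and Pggt1b, which attaches them to other proteins, at -0.07 ± 0.11.

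A mouse's share of each cell type moves the level of genes that the type makes most, and in whole tissue fewer cells of a type cannot be told apart from less RNA per cell. Neuron markers, the check of the labelled tissue, averaged 11.77 to 11.82 per mouse on all 10 arrays, whose medians over all tested rows were 7.38 to 7.41. Of 11 measured myelin markers 0 had an unadjusted p under 0.05, and their mean was 10.44 to 11.13 in Ts65Dn and 10.74 to 10.92 in controls. Of 12 neuron markers, 10 astrocyte markers, 6 markers of oligodendrocyte precursors, 8 of microglia, 8 of endothelial cells and 9 of choroid plexus, 0 had an unadjusted p under 0.05 either. Differences above 0 were found for 7 of 12 neuron markers, 3 of 11 myelin markers, 3 of 10 astrocyte markers, 0 of 6 precursor markers (median -0.06), 7 of 8 microglia markers (median 0.04), 7 of 8 endothelial markers (median 0.08) and 9 of 9 choroid plexus markers (median 0.21). Several of these lists thus stood to one side of 0, as the enzymes did, and in size the difference of the precursor means, -0.07, was close to that of the enzymes. The means were 10.49 to 10.60 in Ts65Dn and 10.52 to 10.62 in controls for astrocytes, 8.19 to 8.32 and 8.26 to 8.40 for the precursors, 8.66 to 9.00 and 8.61 to 8.75 for microglia, and 8.59 to 8.63 and 8.43 to 8.74 for endothelial cells. Markers of choroid plexus, a tissue that lies next to the hippocampus, had means of 6.93 to 9.75 in Ts65Dn and 6.96 to 9.57 in controls. With the choroid plexus mean of each mouse as a covariate, a fit chosen after seeing the data, the difference of the enzyme means was 0.09, and with the myelin mean as a covariate it was 0.08. Of the members above 0, 5 had an unadjusted p under 0.05 with the first covariate and 4 with the second. Cholesterol genes are expressed by several of these cell types, and what the cell types contribute to the differences was not tested beyond these fits.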

How the data were processed

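The deposited values were log2 signals that the authors made with RMA, which subtracts background, brings the arrays to a common distribution and summarises the probes of a transcript cluster. The submitters' notes name RMA, limma and mm10, with no version given. RMA shrinks ratios of dim genes. The number of mice, 5 per genotype, limits the precision. The p-values set the difference of a gene against the spread between these mice, which limma moderates with that of all rows.

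The table held 35556 rows, of which 21789 had 1 gene symbol in the platform annotation, 1621 several and 12146 none. Genotypes were compared over the 23410 rows with a symbol with R 4.3.3 and limma 3.58.1 (lmFit, eBayes). Genotype was the only factor, tests were two-sided, and p-values were adjusted over all of these rows (Benjamini-Hochberg). Errors of differences are standard errors. A gene was its row of highest mean. Members, lists and the naming rule (all members, with values per mouse at an unadjusted p under 0.05, for the smallest p of each role, and for Srebf2, Insig1 and Abca1, and the 4 smallest p of each other list, with Lss) were chosen with earlier results of these data known. Means over members carry no test. Promoters are RefSeq's for GRCm38.p6, and 5 measured members had none there. Alternatives were 3 normalizations, the rows tested, variance models, array weights, a rank method written after the kind the study used (25 pairs, tails of 0.025 and 0.975), a replicate block, other summaries and each array left out. Python 3.11.15 and matplotlib 3.10.9 drew the plots.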

Additional observations from a re-analysis of the deposited data

How the results depend on the processing

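The number of members past an adjusted p of 0.05 was 0 in every limma fit listed under the alternatives, and the rank method, which adjusts for nothing, called 10. The 5 members above 0 at an unadjusted p under 0.05 became 2 after another quantile normalization, 9 with the replicate block and 8 by the rank method, and 2 to 8 with each array left out: 3 without Ts65Dn 2, 2 without Ts65Dn 3, 8 without Ts65Dn 4, 2 without control 4 and 3 without control 5. The 1 member below 0 became 2 with the replicate block and 2 by the rank method, 0 over the rows brighter than the median row, with a mean-variance trend and with array weights, and 0 to 1 with each array left out, being 0 without Ts65Dn 2, 3 or 4 and control 4 or 5. Without control 1 the 1 member counted was Abca1 (unadjusted p of 0.0131) in place of Ggps1. The cause of these shifts was not tested.

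With the median signal over genes in each mouse in place of the mean, the difference was 0.16 for the synthesis enzymes. For the genes of sensing, transport and export it was 0.11, and there the median was the value of Insig1 or Insig2 in every mouse. With each array left out, the difference of the means was 0.068 to 0.11 for the enzymes and 0.016 to 0.048 for the other genes. The log2 differences of the 10 members given mouse by mouse kept their sign and stayed above an adjusted p of 0.05 in every refit. These were 190 values, counting each gene in each refit. Centring arrays on their median moved the median of all rows by 0.0045.

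Equal replicate numbers carry no stated meaning in the labels, and the deviations of same-numbered arrays from their group means correlated at 0.507, 0.269, 0.325, 0.0313 and 0.459 for numbers 1 to 5. Ts65Dn 1, 2, 3 and 5 and controls 1, 3 and 5 each correlated best with the array of their own number in the other genotype. Ts65Dn 4 and controls 2 and 4 did not. Because number 4 correlated at 0.0313 only, the numbers were not taken as pairs, though most arrays resembled that of the same number. What same-numbered arrays share is not stated and was not tested. With the replicate block 76 rows passed an adjusted p of 0.05, against 74 without it, and 2.66% of all rows were at an unadjusted p under 0.05 above 0 and 2.38% below. The members that the block added at an unadjusted p under 0.05 were Fdft1 (p of 0.00741), Hsd17b7 (0.0452), Insig1 (0.0257), Stard4 (0.0386) and Abca1 (0.0382), and the lowest adjusted p of a member was 0.592, for Msmo1. Between arrays of the same number the enzyme mean was higher in Ts65Dn for all 5 numbers, by 0.052 to 0.12, and that of the genes of sensing, transport and export for 4 of 5. For the enzymes the SD of these 5 differences was 0.03, where the SD between mice was 0.06 in Ts65Dn and 0.05 in controls.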
